A study of Homo sapiens with 4 samples.

Results

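Cells take up sugars and amino acids, and release or take up lactate, through solute carrier (SLC) proteins of the plasma membrane. Described here are the genes of the SLC1, SLC2, SLC3, SLC5, SLC6, SLC7, SLC16, SLC36, SLC38 and SLC43 families. They were taken by symbol, a rule that uses no measured value, though earlier results of these data were known. The deposited tables held 99 such genes among 28285 gene rows, 1 row each in all 4 libraries. The starting cells were H1, a line of human embryonic stem cells long in use, in which the gene of the reporter eGFP had been knocked into GATA2, a transcription factor gene of blood progenitors. Differentiated cells bearing the surface proteins CD34 and CD31 and lacking CD43 were sorted by eGFP, with 2 RNA libraries from eGFP-bearing cells (GFP-positive, labelled hemogenic endothelium, the endothelium that gives rise to blood) and 2 from eGFP-lacking cells (GFP-negative, labelled endothelial cells). The titles of all 4 libraries mention Cre without saying what it was used for, and carry the initials HE for both fractions. No differentiation day is given, and the labels do not tell separate cultures from repeat libraries. The p-values therefore reflect the spread among these 4 libraries, which may be technical.

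Facilitative transporters of the SLC2 (GLUT) family let glucose run down its gradient, while SLC5 members couple sugars or inositol to sodium. The SLC16 monocarboxylate transporters move lactate and pyruvate together with protons and allow a cell that lives on glycolysis, as endothelium largely does, to export lactate. Amino acid uptake is shared by sodium-coupled carriers (SLC1, SLC6, SLC38), proton-coupled carriers (SLC36), cationic carriers (part of SLC7) and exchangers made of an SLC7 light chain and an SLC3 heavy chain.

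Levels are in TPM, which scales read numbers for transcript length and to a fixed total per library and so keeps no read depth, so the number of reads behind a value is unknown. GATA2, the reporter locus, had 302 and 385 TPM in GFP-positive replicates 1 and 2 and 80.2 and 87.3 TPM in GFP-negative replicates 1 and 2. All 12 of 12 endothelial marker genes were detected, summing to 3962 and 4148 TPM in GFP-positive and 6419 and 5983 TPM in GFP-negative libraries. All 12 were lower in both GFP-positive libraries, as were 21.5% of all genes tested. All 12 had an unadjusted limma p under 0.05, as did 14.1% of all genes tested, and 0 of the 12 had a limma adjusted p under 0.05. CD34, a sort marker of both fractions, fell in GFP-positive cells, with 458 and 536 against 1232 and 1199 TPM (log2 fold change -1.29; limma adjusted p = 0.0316). SPN, the gene of CD43, had 9.66 to 16.9 TPM. PECAM1, the gene of CD31, is not analysed here. Erythroid marker genes summed to 563 and 386 TPM in GFP-positive and to 89.0 and 81.4 TPM in GFP-negative libraries. Of the 12, 11 were tested, and all 11 were above 0 in log2 fold change. HBG2 and KEL had a limma adjusted p under 0.05, as did 0.447% of all genes tested. Megakaryocyte markers (7 of 8 tested) summed to 171 and 217 against 99.2 and 113 TPM, myeloid markers (5 of 8) to 50.7 and 77.3 against 31.7 and 29.9 TPM, mesenchymal markers (9 of 9) to 1865 and 1835 against 983 and 1212 TPM, and pluripotent cell markers (5 of 7) to 576 and 471 against 398 and 394 TPM. Most of that last sum was LIN28A (477 and 386 against 304 and 287 TPM), while POU5F1 had 0.93 and 0.03 against 9.68 and 5.88 TPM, and 3 of the 5 tested pluripotent cell markers were below 0 in log2 fold change. SPI1 (31.4 and 46.9 against 14.7 and 8.44 TPM) made up most of the myeloid sum in GFP-positive libraries, and 1 of the 5 tested myeloid markers was below 0. PPBP and ELANE were at 0 in all 4 libraries. In these bulk samples, fewer cells of a type and less RNA per cell cannot be told apart.

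The 9 most abundant transporters, the main carriers of glucose, lactate, glutamine and large neutral amino acids among them, had fraction means within 1.59-fold of each other. Wider gaps lay among genes of low or middle level. SLC38A5 and SLC6A9, carriers of glutamine and glycine, had means 4.60-fold and 4.07-fold higher in GFP-positive cells. Neither difference passed the test over all genes. The question was which transporters differ between cells with and without the GATA2 reporter. It was tested with limma on log2(TPM + 1) over the 15425 genes that reached 1 TPM in 2 or more libraries, two-sided, with Benjamini-Hochberg adjustment over all of them. Of the 99 transporters, 61 passed the filter, and 0 of the 61 reached an adjusted p of 0.05, against 69 of all genes tested (0.447%). At an unadjusted p under 0.05 there were 10 transporters (6 higher, 4 lower in GFP-positive cells; 16.4%), close to the 14.1% of all genes tested. The fractions did not overlap, with GFP-positive cells on top, for 9 of the 61, and with GFP-negative cells on top for 15, while 22.8% and 21.5% of all genes tested did so. Together these 24 made up 39.3%, against 44.3% of all genes tested. The median log2 fold change was -0.14 over the 61 and 0.02 over all genes tested, on a scale that understates the change of low genes. Leaving out GFP-positive replicate 1 brought the median over the tested transporters to -0.054, and leaving out GFP-negative replicate 2 to -0.042.

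**Figure D1:**
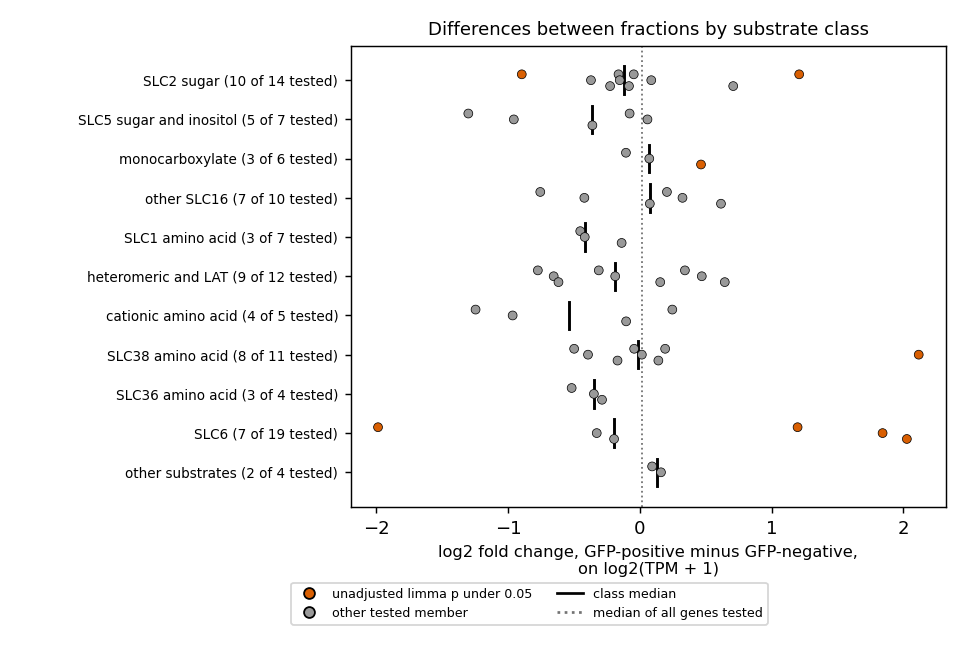
Log2 fold change on log2(TPM + 1), GFP-positive minus GFP-negative, for 59 of the 61 tested transporters by substrate class, with class medians as bars and the median of all genes tested as a dotted line. The 8 points with an unadjusted limma p under 0.05 lie in 4 of the 11 classes, and none passed after adjustment.

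Summed over all 99 transporters, levels were 4218 and 4435 TPM in GFP-positive libraries and 4354 and 4779 TPM in GFP-negative libraries, which overlap. The 9 genes with a mean of at least 100 TPM held 80.1% to 83.3% of that sum in each library. They were SLC2A3, SLC16A3, SLC2A1, SLC1A5, SLC3A2, SLC38A2, SLC16A1, SLC43A3 and SLC7A5, in order of mean level. Of the rest, 28 had a mean of 10 to 100 TPM, 25 of 1 to 10 TPM and 37 under 1 TPM, of which 10 were listed at 0 in all 4 libraries. The highest value of any of the 38 transporters that did not pass the filter was 3.64 TPM. Of the 61 that passed, 2 (SLC6A17 among them) reached 1 TPM only in GFP-negative libraries, so that they had to differ to be tested.

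The 250 bases before a RefSeq start are shown for SLC6A9 and SLC38A5, the 2 genes with the largest difference towards GFP-positive cells on the log2(TPM + 1) scale (the ratio of means was larger, at 6.201, for the lower-level SLC6A16), and for SLC7A5, the main large neutral amino acid carrier. They come from RefSeq on GRCh38.p14, which held a start for 45 of the 61 tested members. They read 5′ to 3′ on the gene's strand. Capitals mark matches on either strand to ACGTG, a form of the core of the hypoxia response element and the only form searched. These matches overlap within the palindrome CACGTG, and a match is to the string alone.
SLC6A9 (chr1:44031463-44031712, minus strand): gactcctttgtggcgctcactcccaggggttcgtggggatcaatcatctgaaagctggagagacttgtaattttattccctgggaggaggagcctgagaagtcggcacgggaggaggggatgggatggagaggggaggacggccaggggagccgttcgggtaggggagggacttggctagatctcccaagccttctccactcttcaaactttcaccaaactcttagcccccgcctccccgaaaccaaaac
SLC38A5 (chrX:48470261-48470510, minus strand): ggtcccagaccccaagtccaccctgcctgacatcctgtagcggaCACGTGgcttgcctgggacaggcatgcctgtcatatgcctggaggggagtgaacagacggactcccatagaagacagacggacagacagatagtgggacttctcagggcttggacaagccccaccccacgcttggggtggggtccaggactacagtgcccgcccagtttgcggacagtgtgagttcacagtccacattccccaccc
SLC7A5 (chr16:87869508-87869757, minus strand): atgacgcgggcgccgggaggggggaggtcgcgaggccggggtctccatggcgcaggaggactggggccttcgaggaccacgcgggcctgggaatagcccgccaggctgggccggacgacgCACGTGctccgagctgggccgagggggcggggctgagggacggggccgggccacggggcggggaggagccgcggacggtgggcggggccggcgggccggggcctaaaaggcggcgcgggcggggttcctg
SLC38A5 and SLC7A5 each hold the palindrome CACGTG, whereas SLC6A9 has no match to it. ACGTG was found in 20 of 75 start windows of the tested members and in 18.5% of all 35116 windows. The GATA site AGATAA, searched on both strands, was in 1 of the 75 windows (SLC36A4) and in 9.17% of all windows. TGATGNAAN, a core of the amino acid response element, was in 1 of the 75 (SLC1A5) and in 3.13% of all windows. Neither of these 2 strings was found in the windows printed above, and other forms of the GATA site were not searched. The SLC38A5 window holds AGATAG, which differs from AGATAA in its last base. How often AGATAG occurs in the other windows was not counted.

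Among facilitative sugar transporters, 10 of 14 were tested, 0 passed, and 3 were above and 7 below 0 in log2 fold change, with a median of -0.12. Leaving out replicate 2 turned that median to 0.14 (GFP-positive) or 0.11 (GFP-negative), and leaving out replicate 1 gave -0.23 (GFP-positive) or -0.28 (GFP-negative). SLC2A3, the high-affinity glucose carrier GLUT3 (ENSG00000059804; chromosome 12, 7919230 to 7936275, minus strand, in GENCODE v29 on GRCh38 as for all positions here), was the most abundant of all 99 transporters. It had 996 and 1015 TPM in GFP-positive replicates 1 and 2 and 1046 and 1195 TPM in GFP-negative replicates 1 and 2. Both GFP-positive libraries lay below both GFP-negative ones, by little, with a log2 fold change of -0.15 and a 95% interval of -0.45 to 0.15 (limma adjusted p = 0.654). SLC2A1, the GLUT1 carrier of red cells and barrier endothelium (ENSG00000117394; chromosome 1, 42925375 to 42959176, minus strand), had 501 and 471 TPM in GFP-positive and 578 and 559 TPM in GFP-negative libraries. Its libraries did not overlap, and the log2 fold change was -0.23 with an interval of -0.52 to 0.06 (limma adjusted p = 0.465). Together these 2 genes made up 92.4% to 94.2% of the class in each library, and the ratio of SLC2A1 to SLC2A3 was 0.502 and 0.464 in GFP-positive and 0.552 and 0.468 in GFP-negative libraries, which overlap.

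SLC2A11, a carrier of glucose and fructose (chromosome 22, 23856703 to 23886309, plus strand), had 18.1 and 14.2 TPM in GFP-positive and 7.90 and 5.09 TPM in GFP-negative libraries. Its mean was 2.49-fold higher in GFP-positive cells, with no overlap (log2 fold change 1.21 ± 0.39, SE; limma adjusted p = 0.257). SLC2A13, a proton-coupled myo-inositol carrier (chromosome 12, 39755021 to 40106089, minus strand), went the other way, with 11.1 and 9.15 TPM against 22.3 and 17.2 TPM. The log2 fold change was -0.90 ± 0.33 (SE; limma adjusted p = 0.314). SLC2A6, a lysosomal hexose carrier, had 26.3 and 21.1 against 22.6 and 26.3 TPM, with full overlap. The other tested SLC2 genes had means of 1.24 to 20.5 TPM over the 4 libraries. Among them SLC2A14 is a near copy of SLC2A3: of all 50-base words in the longest coding SLC2A3 transcript of GENCODE v29, 23.0% also occur in SLC2A14, so reads could be split between them. SLC2A14 stood at 1.28% to 2.60% of the SLC2A3 level. In SLC2A11, 11.9% of such words are shared with an overlapping read-through gene.

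Sodium-coupled sugar and inositol transporters were scarce, with 9.84 and 13.3 TPM in sum in GFP-positive and 16.4 and 28.7 TPM in GFP-negative libraries. Of 7 genes, 5 were tested, none passed (0 at an unadjusted p under 0.05), and 4 of the 5 were below 0. SLC5A2, the kidney glucose carrier SGLT2, had 2.09 and 4.54 against 4.91 and 16.6 TPM. SLC5A4, a glucose-sensing relative, had 2.19 and 4.25 against 6.75 and 7.13 TPM. For both genes the GFP-positive libraries lay below, and limma gave adjusted p-values of 0.444 and 0.435. SLC5A3, the myo-inositol carrier, had 3.02 and 2.35 against 2.55 and 2.50 TPM, with overlap. In the SLC5A2 transcript 33.2% of 50-base words occur in other genes, most in the overlapping C16orf58 on the opposite strand. The labels name a TruSeq RNA kit without saying whether strand was used, so a share of the SLC5A2 reads may be counted from that gene.

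Among single classes, the lactate and other monocarboxylate carriers had the highest sum after the facilitative sugar transporters. It was 944 and 876 TPM in GFP-positive and 939 and 849 TPM in GFP-negative libraries. SLC16A3, the lactate exporter MCT4 of glycolytic cells (ENSG00000141526; chromosome 17, 82228397 to 82261129, plus strand), had 672 and 653 TPM in GFP-positive and 750 and 677 TPM in GFP-negative libraries. The log2 fold change was -0.11, with an interval of -0.40 to 0.19 (limma adjusted p = 0.775), and both GFP-positive libraries lay below by little. SLC16A1, the lactate and pyruvate carrier MCT1 (ENSG00000155380; chromosome 1, 112911847 to 112957013, minus strand), had 269 and 220 TPM against 185 and 167 TPM. Its mean was 1.39-fold higher in GFP-positive cells, without overlap (log2 fold change 0.46 ± 0.16, SE; limma adjusted p = 0.283). The ratio of SLC16A1 to SLC16A3 was 0.400 and 0.338 in GFP-positive and 0.247 and 0.247 in GFP-negative libraries. This gave p = 0.333 in a two-sided exact permutation test, the smallest p that 2 libraries against 2 allow. Their sum was 941 and 873 against 935 and 845 TPM, which overlaps. SLC16A7, the related MCT2, had 1.69 to 2.55 TPM. The other 3 genes of the class did not pass the filter.

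Of the other 10 SLC16 genes, 7 were tested and 0 passed. SLC16A5 had 25.1 and 20.6 against 35.7 and 26.5 TPM, and SLC16A9 had 16.02 and 18.14 against 17.90 and 11.96 TPM.

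Of the SLC1 family, SLC1A5, the glutamine carrier ASCT2 (ENSG00000105281; chromosome 19, 46774883 to 46788594, minus strand), had 272 and 335 TPM in GFP-positive and 292 and 378 TPM in GFP-negative libraries. The fractions overlapped (log2 fold change -0.14, interval -0.58 to 0.31; limma adjusted p = 0.817). SLC1A4, the alanine, serine and cysteine carrier ASCT1, had 9.23 and 20.5 against 13.9 and 26.6 TPM. In both genes the gap between replicates of a fraction was wider than the gap between fractions. The glutamate carriers of the family were low, SLC1A6 at 1.01 to 2.05 TPM, and SLC1A1, SLC1A2, SLC1A3 and SLC1A7 did not pass the filter. In the SLC1A5 transcript 25.8% of 50-base words are shared with an antisense gene.

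Of 12 heteromeric and large neutral amino acid transporters, 9 were tested, 0 passed, and 4 were above and 5 below 0, with log2 fold changes of -0.77 to 0.64. The class summed to 412 and 499 against 447 and 619 TPM. SLC3A2, the heavy chain CD98 (ENSG00000168003; chromosome 11, 62856102 to 62888875, plus strand), had 263 and 264 TPM in GFP-positive and 268 and 335 TPM in GFP-negative libraries, which did not overlap (log2 fold change -0.19, interval -0.56 to 0.19; limma adjusted p = 0.666). Its partner SLC7A5, the light chain LAT1 that carries leucine and other large amino acids (ENSG00000103257; chromosome 16, 87830023 to 87869488, minus strand), had 65.2 and 110.5 TPM against 99.6 and 180 TPM. The SLC7A5 mean was 1.59-fold higher in GFP-negative cells with overlapping libraries (log2 fold change -0.65 ± 0.36, SE; limma adjusted p = 0.484). The ratio of SLC7A5 to SLC3A2 was 0.248 and 0.419 against 0.371 and 0.539. SLC7A6, a light chain that exchanges cationic for neutral amino acids, had 20.1 and 36.2 against 16.2 and 22.8 TPM. Of its 50-base words, 57.1% are shared with other genes, chiefly SLC7A6OS on the opposite strand.

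Cationic amino acid transporters were led by SLC7A1, the arginine and lysine carrier CAT1 (chromosome 13, 29509410 to 29595688, minus strand), with 51.0 and 80.0 TPM in GFP-positive and 48.1 and 60.0 TPM in GFP-negative libraries. SLC7A2, also an arginine carrier, had 8.66 and 9.64 against 9.56 and 10.2 TPM. SLC7A3 had 0.85 and 5.14 against 3.31 and 9.04 TPM. All 3 overlapped between fractions, and of the 5 genes 4 were tested and 0 passed.

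The SLC38 family, sodium-coupled carriers of glutamine and other neutral amino acids, had 8 of 11 genes tested and 0 passing, with 4 above and 4 below 0. SLC38A2, the amino-acid-regulated carrier SNAT2 (chromosome 12, 46358189 to 46372867, minus strand), had 281 and 293 TPM in GFP-positive and 271 and 250 TPM in GFP-negative libraries (log2 fold change 0.14, interval -0.18 to 0.46; limma adjusted p = 0.707). SLC38A1, or SNAT1, had 31.9 and 55.1 against 45.0 and 79.0 TPM, and SLC38A10 had 58.6 and 94.0 against 64.3 and 91.0 TPM. SLC38A5, the glutamine, histidine and serine carrier SNAT5 whose upstream bases are printed above (ENSG00000017483; chromosome X, 48458537 to 48470256, minus strand), stood apart from its family. It had 26.0 and 41.6 TPM in GFP-positive and 4.42 and 10.3 TPM in GFP-negative libraries, so that the lowest GFP-positive value was well above the highest GFP-negative one. The log2 fold change of SLC38A5 was 2.12 ± 0.47 (SE; limma adjusted p = 0.131), the largest of the 61. The erythroid, megakaryocyte, myeloid, mesenchymal and pluripotent cell marker sums given above were all higher in the same 2 libraries, and the endothelial sum was lower. The part of any of these cell types in this difference was not tested.

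Among the SLC36 carriers, which move small amino acids with protons out of lysosomes or into cells, 3 of 4 were tested and none passed (0 at an unadjusted p under 0.05). SLC36A4 had 16.5 and 13.0 TPM in GFP-positive and 18.6 and 17.6 TPM in GFP-negative libraries. SLC36A1 had 2.53 and 5.13 against 2.14 and 10.2 TPM, and SLC36A2 had 1.55 and 0.94 against 1.83 and 2.58 TPM. All 3 had log2 fold changes below 0, between -0.52 and -0.29.

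SLC6 was the family with the most members at an unadjusted p under 0.05, 5 of its 7 tested genes (19 in all), though 0 passed after adjustment. Of these, 3 were higher and 2 lower in GFP-positive cells. Among all genes tested, 14.1% had an unadjusted p under 0.05. The family summed to 113 and 122 TPM in GFP-positive and 77.8 and 72.4 TPM in GFP-negative libraries, without overlap. Most of the GFP-positive sum was SLC6A9 and SLC6A8, and 4 of the 7 tested genes were below 0 in log2 fold change. SLC6A9, the glycine carrier GlyT1 that supplies red cell precursors with glycine for heme (ENSG00000196517; chromosome 1, 43991500 to 44031467, minus strand), had 40.1 and 54.6 TPM in GFP-positive and 6.99 and 16.3 TPM in GFP-negative libraries. No library overlapped, and the log2 fold change was 2.03 ± 0.43 (SE; limma adjusted p = 0.12). SLC6A8, the creatine carrier (chromosome X, 153688099 to 153696593, plus strand), had 27.3 and 23.4 TPM against 8.73 and 12.5 TPM, a mean 2.39-fold higher in GFP-positive cells (log2 fold change 1.20 ± 0.33, SE; limma adjusted p = 0.197). For SLC6A8, 11.1% of 50-base words are shared with other genes, among them the pseudogene SLC6A10P. SLC6A16, a member without a known substrate, had 4.31 and 9.58 TPM against 0.77 and 1.47 TPM (limma adjusted p = 0.234). As for SLC38A5, the marker sums of several cell types were higher in the same libraries, and their part was not tested.

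SLC6A17, a neutral amino acid carrier of synaptic vesicles, had 0.19 and 0.15 TPM in GFP-positive and 2.22 and 5.67 TPM in GFP-negative libraries (limma adjusted p = 0.226). Its level was near 0 in GFP-positive cells. Endothelial markers were higher in the same GFP-negative libraries, and their part was not tested. The gene rests on a few TPM and passed the filter through the GFP-negative libraries alone. SLC6A6, the taurine carrier, had 31.4 and 24.2 against 47.3 and 25.6 TPM, with overlap. The 12 SLC6 genes that did not pass the filter included SLC6A2, SLC6A3 and SLC6A4, the carriers of noradrenaline, dopamine and serotonin.

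**Figure D2:**
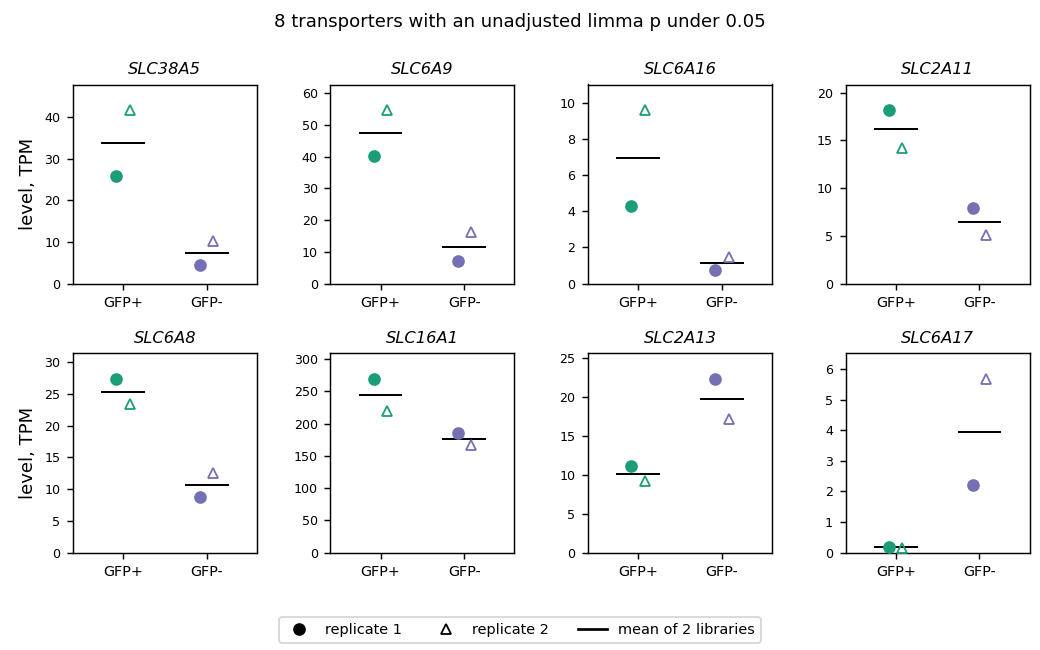
TPM in each library for 8 of the 10 transporters with an unadjusted limma p under 0.05, GFP-positive (GFP+) beside GFP-negative (GFP-), with circles for replicate 1, triangles for replicate 2 and a line at the mean of 2. SLC38A5, SLC6A9, SLC6A16, SLC2A11, SLC6A8 and SLC16A1 are higher and SLC2A13 and SLC6A17 lower in GFP-positive cells. The fractions do not overlap in any panel, which choosing genes by p in these same libraries favours. Among all genes tested 44.3% did not overlap.

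Carriers of other substrates were SLC43A3, a purine nucleobase carrier, with 140 and 190 TPM in GFP-positive and 136 and 157 TPM in GFP-negative libraries, and SLC5A6, the multivitamin carrier, with 71.2 and 51.2 against 53.8 and 59.5 TPM. Both overlapped. In SLC43A3, 46.9% of 50-base words also belong to an overlapping read-through gene.

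**Figure D3:**
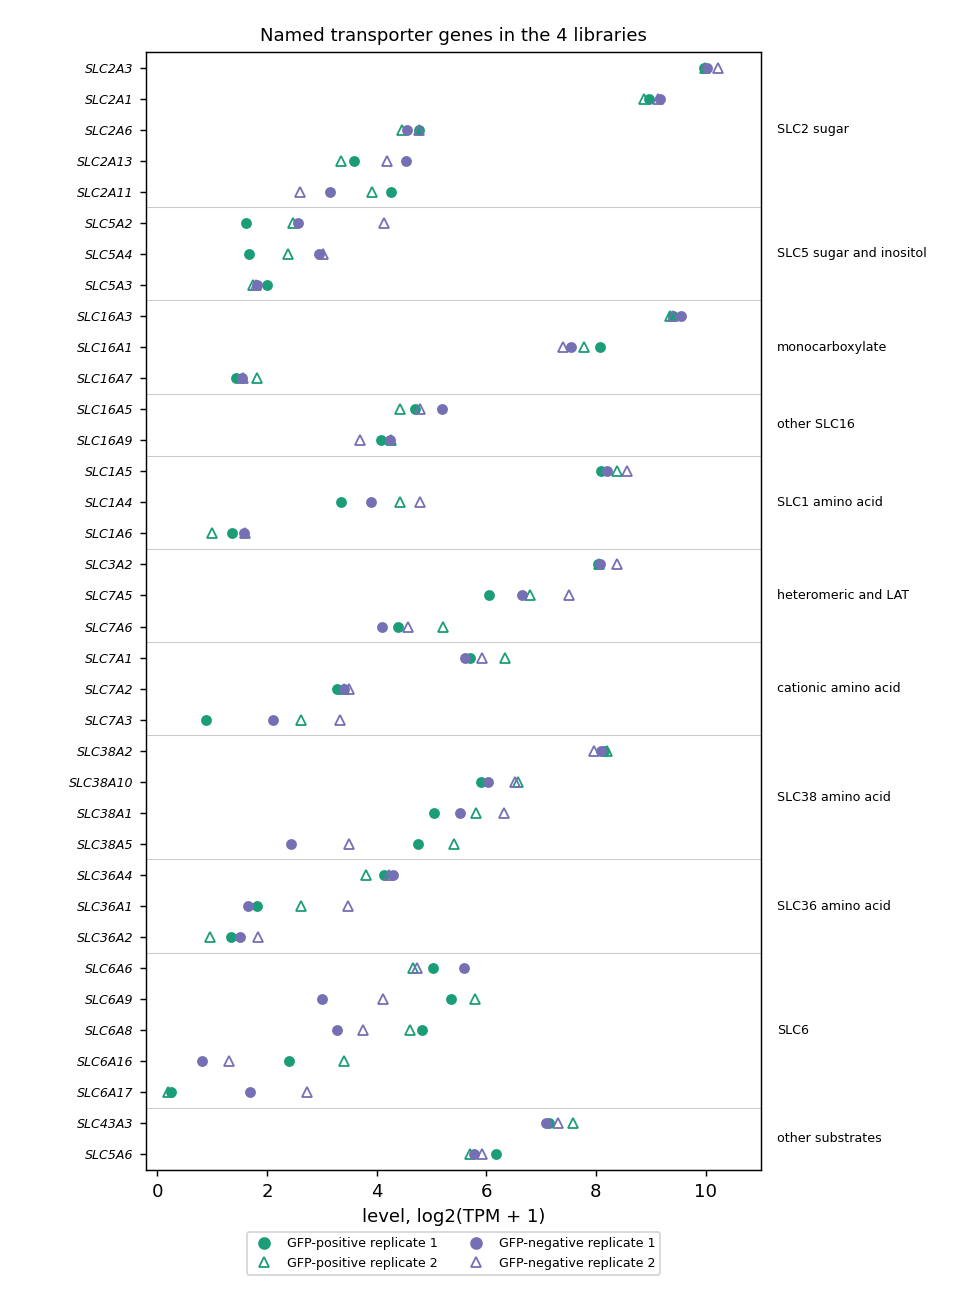
Level as log2(TPM + 1) of 36 named transporters, by class, in GFP-positive (green) and GFP-negative (purple) libraries, with filled circles for replicate 1 and open triangles for replicate 2. The most abundant genes, SLC2A3, SLC16A3 and SLC2A1, differ little between fractions, while SLC38A5 and SLC6A9 separate.

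The enzymes that use what these carriers bring in were compared in the same fit, in which 14.1% of all genes tested had an unadjusted p under 0.05 (1032 higher and 1139 lower in GFP-positive cells). Of 20 glycolysis and lactate enzymes all were tested and 0 passed limma, with 3 at an unadjusted p under 0.05, 8 above and 12 below 0, and a median log2 fold change of -0.04. Those furthest from 0 were PFKFB3, which makes the allosteric activator of phosphofructokinase, with 60.8 and 53.6 against 103 and 77.6 TPM (limma adjusted p = 0.266), and PFKP, the platelet phosphofructokinase, with 483 and 491 against 325 and 328 TPM (limma adjusted p = 0.115). Neither gene overlapped between fractions. Of 5 chaperones and regulators, TXNIP, an arrestin-like protein that promotes removal of GLUT1 from the membrane, had 122 and 124 against 65.5 and 78.4 TPM (limma adjusted p = 0.137). EMB, a chaperone of monocarboxylate carriers, had 12.8 and 9.43 against 20.9 and 15.6 TPM (limma adjusted p = 0.457). BSG, the main chaperone of MCT1 and MCT4 and named here after its values were seen, had 1003 and 1151 against 944 and 1011 TPM, with overlap.

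Of 11 enzymes of glutamine, serine and asparagine metabolism, 0 passed limma (2 at an unadjusted p under 0.05), with 4 above and 7 below 0 and a median of -0.14. PHGDH, the first enzyme of serine synthesis, had 71.7 and 176 TPM in GFP-positive and 203 and 270 TPM in GFP-negative libraries (limma adjusted p = 0.335), and ASNS, asparagine synthetase, had 55.7 and 133 against 103 and 154 TPM (limma adjusted p = 0.641). Of 10 amino acid response genes, the targets of the transcription factor ATF4 and its partners, 0 passed limma and 5 had an unadjusted p under 0.05, all lower in GFP-positive cells, beside the 14.1% of all genes tested. Their median log2 fold change was -0.62, with 9 of 10 below 0. ATF3 had 12.6 and 21.7 against 30.9 and 49.2 TPM (limma adjusted p = 0.249), and TRIB3 had 43.3 and 62.4 against 79.8 and 152 TPM (limma adjusted p = 0.256). Of 10 hypoxia response genes, 0 passed limma and 1 had an unadjusted p under 0.05, with 9 of 10 below 0 and a median of -0.35. The widest gaps were those of NDRG1 (85.9 and 103 against 148 and 218 TPM; limma adjusted p = 0.159) and ADM (3.51 and 5.88 against 14.2 and 5.70 TPM; limma adjusted p = 0.557).

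Many amino acid carriers differed between replicates in the same direction in both fractions. Of the 34 tested genes of the 6 amino acid classes, 19 (55.9%) were higher in replicate 2 than in replicate 1 of both fractions, and 4 were lower in both, whereas 26.1% and 27.0% of all genes tested behaved so. SLC7A5, SLC1A4, SLC1A5, SLC38A1, SLC7A1 and SLC7A3, with the values given above, were among the 19. Of the sugar class, 2 of 10 tested genes were higher in both replicates numbered 2 and 4 were lower in both. The same count was 7 of 10 for amino acid response genes, 7 of 11 for the glutamine, serine and asparagine enzymes and 2 of 20 for glycolysis enzymes, of which 16 were lower in both. These describe genes within the same 4 libraries, which are not independent. Nothing in the labels says what a shared replicate number means.

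**Figure D4:**
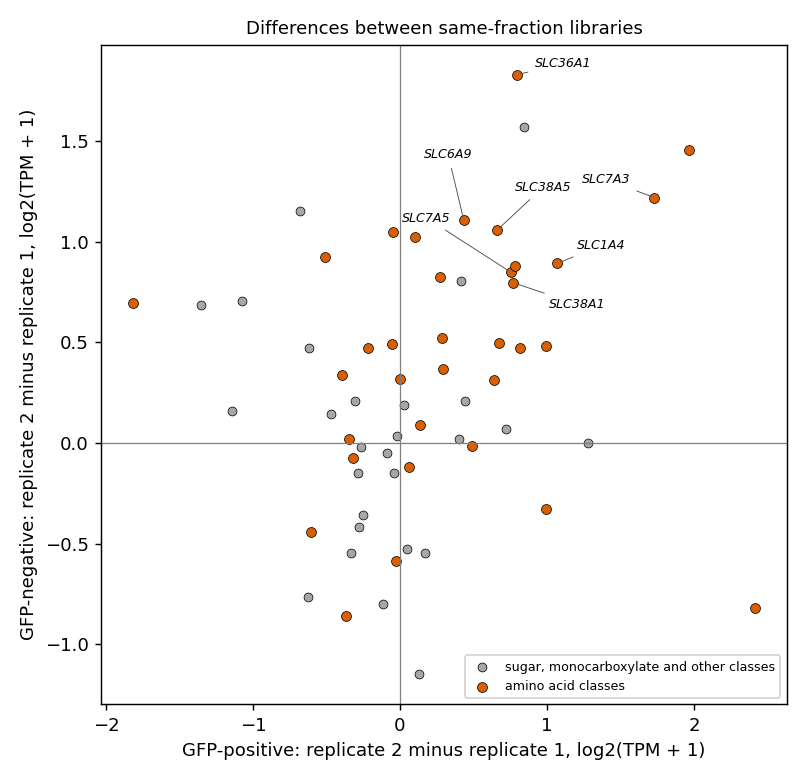
Difference between replicate 2 and replicate 1 on log2(TPM + 1) in GFP-positive (horizontal axis) and GFP-negative cells (vertical axis) for the 61 tested transporters, with the 34 of the amino acid classes in orange. Of these, 19 lie in the upper right, higher in replicate 2 of both fractions, and 4 in the lower left.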

How the data were processed

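RNA sequencing libraries, 2 per fraction, were made from total RNA taken up in Trizol with an Illumina TruSeq RNA kit, per the labels' protocols. The authors deposited 1 table per library with an Ensembl identifier, a symbol and a value taken here as TPM, because the values sum to 996323.64 to 997292.9 per library and RSEM is named beside Bowtie in the submitters' processing notes. These notes also name hg19 and mm10 without their roles, and give no version, annotation or strand setting. Groups and replicate numbers came from the titles. The transporters were taken by symbol, classed by substrate from general knowledge, and members and lists were chosen with earlier results of these data known. Limma 3.58.1 in R 4.3.3 was run, variance trend included, on log2(TPM + 1) of genes reaching 1 TPM in 2 or more libraries, with two-sided p-values adjusted by Benjamini-Hochberg over 15425 genes, and was tested on simulated data. Named transporters were SLC2A1, those at an unadjusted or adjusted p under 0.05 and the 3 with the highest mean per class (at least 1 TPM). The values of 2 transporters that the rule takes in are not reported here, though counts, sums and medians include them. In each pathway list the 2 with the largest absolute log2 fold change were named. Coordinates and shared 50-base words came from GENCODE 29 on GRCh38, which need not be the authors' annotation. Values at a few TPM rest on an unknown number of reads. Alternatives were pseudocounts of 0.1 and 5, no filter, a mean of at least 5 TPM, no trend, upper quartile and median ratio scaling, a block for replicate number, and leaving out each library in turn.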

Additional observations from a re-analysis of the deposited data

How the results depend on the processing

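Among all genes tested, the count of calls (69) depended on the settings. A pseudocount of 0.1 gave 0 (unadjusted p under 0.05: 2101 genes), leaving the filter off gave 0 (2230 genes), leaving the variance trend off gave 0 (2072 genes) and a mean of at least 5 TPM gave 164. With 1 library left out it was 0 to 65. Applying the filter to the 3 remaining libraries gave 58 and 53 on leaving out replicate 1 or 2 of GFP-positive cells, and 18 and 65 on leaving out replicate 1 or 2 of GFP-negative cells. It was 0 in each case (1225 to 1894 at an unadjusted p under 0.05) with the genes kept by the filter on all 4, an alternative chosen after seeing the data. A lone library is assumed to vary like the pair it is compared with. Under all of these settings 0 transporters were called (5 to 11 at an unadjusted p under 0.05).

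With the replicate number as a block, 596 genes were called (228 higher, 368 lower in GFP-positive cells), 3 of them transporters, among them SLC6A9 (adjusted p = 0.00836, limma) and SLC38A5 (adjusted p = 0.0117, limma). Nothing in the labels pairs the libraries. The deviations of same-numbered libraries had a correlation of 0.07 over all genes tested and 0.20 over the 61 transporters.

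Median log2 fold changes of small classes moved by more than the spread between replicates. For the sodium-coupled sugar and inositol transporters the median of -0.36 became -1.16 with a pseudocount of 0.1, -0.095 with 5, -0.22 without the filter and -1.13 with a mean of at least 5 TPM, and -0.72 to -0.077 with 1 library left out. For the other SLC16 genes it became -0.17 without the filter, -0.59 with a mean of at least 5 TPM, and -0.19 to 0.34 with 1 library left out. For the cationic carriers it became -0.19 without the filter, 0.071 with a mean of at least 5 TPM, and -0.86 to -0.067 with 1 library left out. For SLC6 it became 0.50 with a mean of at least 5 TPM and -0.49 to 1.43 with 1 library left out. Leaving out GFP-negative replicate 1 or 2 gave 0.96 and 1.43 where the filter then kept 5 SLC6 genes. With the same 7 genes kept, these medians were 0.10 and -0.49. With 1 library left out it was -0.084 to 0.27 for the monocarboxylate and -0.22 to 0.37 for the SLC38 carriers. A change of filter also changed which genes entered a class. A mean of at least 5 TPM left 2 sodium-coupled sugar and inositol, 4 other SLC16, 2 cationic and 4 SLC6 genes. Beyond this, the cause was not tested.

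Of 566 values of 36 named transporters under other settings, 532 kept their direction and side of the threshold and 32 reversed, all with 1 library left out. The ranges of log2 fold change were then -0.13 to 0.27 for SLC16A7, -0.066 to 0.48 for SLC16A9, -0.99 to 0.083 for SLC1A4, -0.32 to 0.046 for SLC1A5, -0.20 to 0.11 for SLC2A6, -1.26 to 0.57 for SLC36A1, -0.38 to 0.29 for SLC38A10, -0.061 to 0.38 for SLC43A3, -0.073 to 0.19 for SLC5A3, -0.14 to 0.33 for SLC5A6, -0.76 to 0.10 for SLC6A6 and -0.074 to 0.57 for SLC7A1. The 8 named transporters at an unadjusted p under 0.05 kept their direction in every setting in which they were tested.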
